A study of Mus musculus with 4 samples.

Results

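The genes described here are the receptor tyrosine kinase gene Ret, its co-receptor genes Gfra1, Gfra2 and Gfra3, and the ligand genes Gdnf, Nrtn and Artn, measured in cultured mouse ureters after a block of WNT secretion. They were chosen by name, as all probes whose gene name on the array equals a member, which gave 7 probes for 7 genes out of 39429 gene probes for 29924 genes. Ureters of wildtype NMRI embryos were dissected at E12.5, when the epithelial tube is still undifferentiated and surrounded by mesenchyme, and were cultured for 18 h. The treated explants received 10 µM IWP-2, an inhibitor of Porcupine, the enzyme that attaches the lipid which WNT proteins need to leave the cell. The control explants received the solvent DMSO at 2 parts per 1000, and both groups were otherwise the same in strain, genotype, stage and culture time. The sex of the embryos was not determined. Each of 4 two-colour arrays compared a pool of treated ureters with a pool of control ureters, with the treated RNA in red on arrays 1 and 3 and in green on arrays 2 and 4. The comparison asks how the RNA of these genes changed in the ureter when no new WNT could be secreted.

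GDNF family ligands act on cells in pairs of receptors. Each ligand binds a GFRα protein anchored to the membrane, GDNF preferring the product of Gfra1, neurturin (Nrtn) that of Gfra2 and artemin (Artn) that of Gfra3, and the complex then activates RET, a kinase that spans the membrane of the same cell. In the developing kidney, GDNF from the metanephric mesenchyme acts on RET and Gfra1 in the ureteric bud and drives the outgrowth and branching of the epithelium, while in the peripheral nervous system the same family guides and maintains neurons.

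Each gene was read by a single probe of 60 bases, present in 4 copies on every array, so a change in a gene's RNA is seen here through 1 short stretch of its transcript. The first 30 bases of 6 probes are shown because they define what was measured, and the positions are those of the whole probe in the mm9 build, as the array files give it.
Ret, chr6:118101791-118101850, minus strand: ccataccgtgttgacttgtttttgtaatca
Gdnf, chr15:7787474-7787533, plus strand: ctgatgtctcggtcgtttgtgttatacaac
Nrtn, chr17:56890748-56890807, minus strand: aagggccctccctgccgaccctcgctgaga
Artn, chr4:117598825-117598884, minus strand: atatatacatatatacattgtagtcgcgtt
Gfra1, chr19:58311604-58311663, minus strand: ccacaacttagaacagtttggattcaaggt
Gfra2, chr14:71379586-71379645, plus strand: tgcattcactcttaaccaagctccaataaa
Which exon or UTR each probe falls in was not determined, since no annotation of that build was used. The G and C content of the probes ran from 35.0% for Ret and Gdnf to 58.3% for Nrtn.

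The arrays were alike in quality. In each channel, 75.1% to 80.0% of gene probes had more than 0.5 of their spots well above background. No spot was saturated, and 3.01% to 3.38% of spots were left out as outliers. The log2 ratios of 2 arrays correlated across genes with r from 0.625 to 0.831, and the median SD of a gene's ratio over the 4 arrays was 0.11. Of 22455 genes with a usable signal, 7428, or 33.1%, passed the test (limma, Benjamini-Hochberg adjusted p under 0.05), with 18.1% of all genes higher and 15.0% lower after IWP-2, so a called gene is common in these data. All 7 family genes were usable, and every spot read as well above background in both channels on every array. In whole explants, fewer cells of a type and less RNA per cell cannot be told apart, and the p-values measure the spread between these 4 pairs of pools.

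Of the 7 genes, 3 were called higher (Ret, Gfra3 and Artn), against 18.1% of all genes, 2 were called lower (Gfra2 and Gdnf), against 15.0%, and Gfra1 and Nrtn did not pass. The changes ran in both directions and their median was 0.05 on the log2 scale, with 0.00 for all genes tested. None of the 7 changed by 2-fold on any array, and the largest single ratio was 0.81 in size. Changes of that size were rare in general, since 204 of the 22455 genes tested were called with an estimate over the arrays of 2-fold or more. Read by ligand and preferred co-receptor, Artn and its co-receptor gene Gfra3 were both higher, Nrtn did not pass while its co-receptor gene Gfra2 was lower, and Gdnf was lower while its co-receptor gene Gfra1 did not pass.

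**Figure D1:**
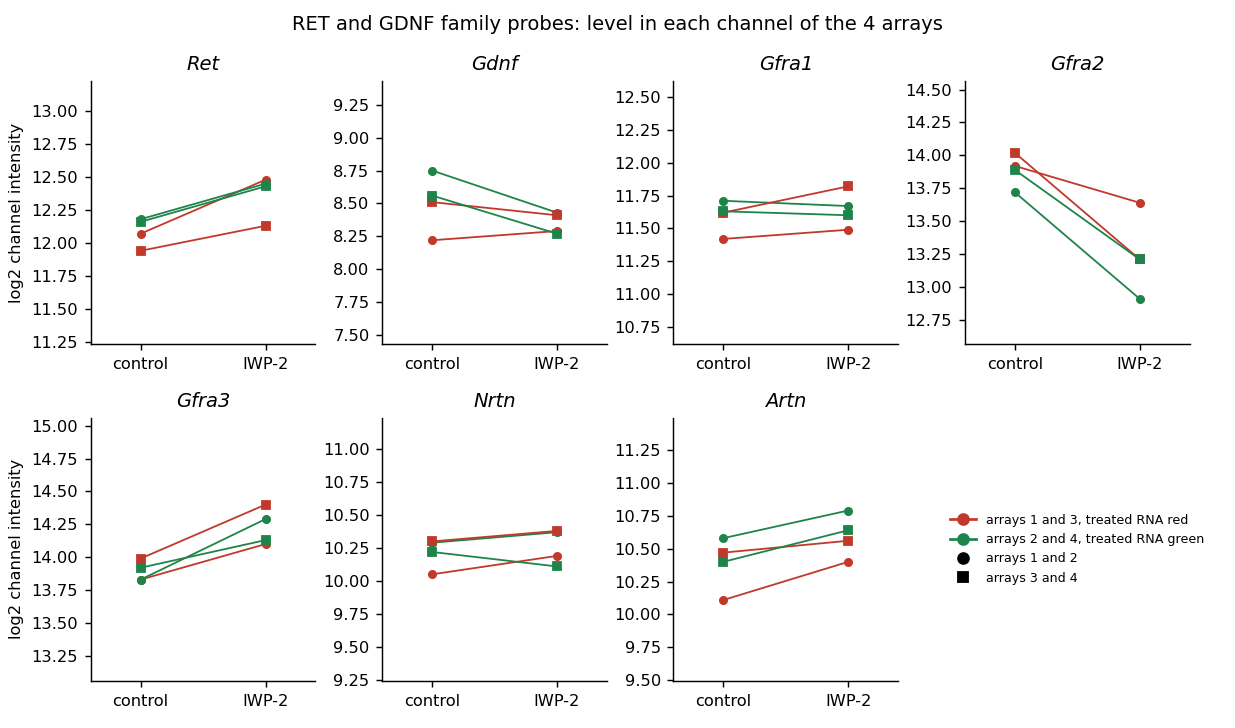
The normalised level of each probe in the control and IWP-2 channel of the 4 arrays is plotted on a log2 scale, a line joining the channels of an array and every panel spanning 2 log2 units. Only in the Gfra2 and Gfra3 panels do the 4 IWP-2 values lie entirely to one side of the 4 control values, lower for Gfra2 and higher for Gfra3.

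Among the ligand genes, Gdnf encodes the main attractant of the ureteric bud. Its raw control intensities were 193, 487, 265 and 490 on arrays 1 to 4. The normalised log2 level was 8.22, 8.75, 8.51 and 8.56 in the control and 8.29, 8.43, 8.41 and 8.27 after IWP-2. The groups overlapped, and the treated level was the lower of the pair on 3 of 4 arrays. The log2 ratios were 0.07, -0.32, -0.11 and -0.29, a mean of -0.16 ± 0.18 (SD, n = 4), with a limma interval of -0.27 to -0.05 and an adjusted p of 0.0368. The ratio went with the dye, averaging -0.02 where the treated RNA was red and -0.30 where it was green, and the dye term of the fit had an unadjusted limma p of 0.0175. The call was lost in 8 of 13 alternatives. These included the fit without the dye term (limma adjusted p = 0.153) and the fits without array 2 (0.108), array 3 (0.165) or array 4 (0.0831). A dye effect that is alike on all arrays cancels in this mean, which holds both orientations equally. The mean stayed at -0.16 without the dye term, but the call did not hold.

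Artn encodes artemin, which is known for guiding sympathetic nerve fibres along blood vessels. Its log2 level was 10.11, 10.58, 10.47 and 10.40 in the control and 10.40, 10.79, 10.56 and 10.64 after IWP-2. The groups overlapped because the arrays differed in level, but on each array the treated channel was the higher one. The ratios of 0.29, 0.21, 0.09 and 0.23 gave a mean of 0.21 ± 0.08 (SD, n = 4), a 1.15-fold level, with a limma interval of 0.10 to 0.32 and an adjusted p of 0.0170. Each of its 15 usable spots was higher in the treated channel. The call was lost without array 1, at a value of 0.16 (limma adjusted p = 0.0711), and with the 8 channels fitted as separate samples (0.264).

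Nrtn encodes neurturin, a survival factor for parasympathetic and enteric neurons. Its log2 level was 10.05, 10.29, 10.30 and 10.22 in the control and 10.19, 10.37, 10.38 and 10.11 after IWP-2. The groups overlapped and 1 of 4 arrays went the other way. The mean ratio was 0.05 ± 0.11 (SD, n = 4) and the limma interval of -0.06 to 0.16 bounds the change that these arrays leave possible (adjusted p = 0.433).

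**Figure D2:**
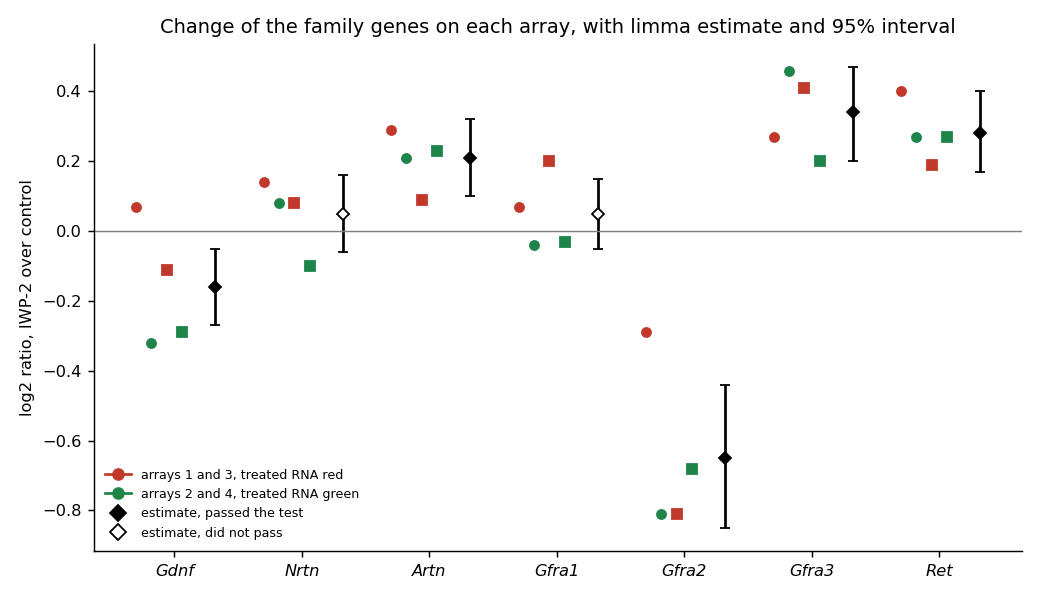
Log2 ratios of IWP-2 over control for the 3 ligand genes, the 3 co-receptor genes and Ret are plotted for each array, coloured by dye orientation, beside the limma estimate with its 95% interval. The Gfra2 values lie between -0.81 and -0.29, with the lowest estimate of the family, and the Gdnf values split by colour, its lower pair at -0.32 and -0.29.

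Of the co-receptor genes, Gfra2 showed the largest change of the family. Its log2 level was 13.92, 13.72, 14.02 and 13.89 in the control and 13.64, 12.91, 13.21 and 13.21 after IWP-2. Every treated value was below every control value. The ratios were -0.29, -0.81, -0.81 and -0.68, with array 1 the smallest, and the mean was -0.65 ± 0.25 (SD, n = 4), a 0.64-fold level. The limma interval ran from -0.85 to -0.44 and the adjusted p was 0.00253. All 15 usable spots were lower, and 2.33% of genes changed by as much or more in either direction. For the other called members this share was 9.88% (Gfra3), 14.0% (Ret), 23.0% (Artn) and 31.5% (Gdnf). The Gfra2 value lay between -0.78 and -0.52 in all alternatives. It was called in all of them except the series' own table of per-array fold changes, where the value was -0.64 (limma adjusted p = 0.0812).

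Gfra3, the artemin co-receptor gene, is known from sensory and sympathetic neurons. Its probe lies at chr18:34849560-34849619 on the minus strand of mm9. Its log2 level was 13.83, 13.83, 13.99 and 13.92 in the control and 14.10, 14.29, 14.40 and 14.13 after IWP-2. The groups did not overlap, the treated values being higher. The ratios of 0.27, 0.46, 0.41 and 0.20 gave a mean of 0.34 ± 0.12 (SD, n = 4), a 1.26-fold level, with a limma interval of 0.20 to 0.47 and an adjusted p of 0.00594. All 15 usable spots were higher. The call held in 13 of 14 alternatives and was lost with the series' table, at 0.32 (limma adjusted p = 0.113).

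Gfra1, which the GDNF signal in the ureteric bud requires, did not pass the test. Its log2 level was 11.42, 11.71, 11.62 and 11.63 in the control and 11.49, 11.67, 11.82 and 11.60 after IWP-2, with 2 arrays higher and 2 lower. The mean ratio was 0.05 ± 0.11 (SD, n = 4), with a limma interval of -0.05 to 0.15 and an adjusted p of 0.395, which leaves a small change in either direction possible. It did not pass in any of 14 alternatives.

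Ret, the signalling receptor shared by all 3 ligands, was higher on each array. Its log2 level was 12.07, 12.18, 11.94 and 12.16 in the control and 12.48, 12.45, 12.13 and 12.43 after IWP-2. The treated value of array 3 lay within the control range, and array 3 also had the lowest control value, so that the groups overlapped while all 4 pairs rose. The ratios of 0.40, 0.27, 0.19 and 0.27 gave a mean of 0.28 ± 0.09 (SD, n = 4), a 1.22-fold level, with a limma interval of 0.17 to 0.40 and an adjusted p of 0.00651. The mean was 0.29 with the treated RNA in red and 0.27 with it in green, and all 14 usable spots were higher. The value was 0.23 to 0.33 in the alternatives. The call was lost with the series' table (limma adjusted p = 0.0677) and with the channels as separate samples (0.0660).

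**Figure D3:**
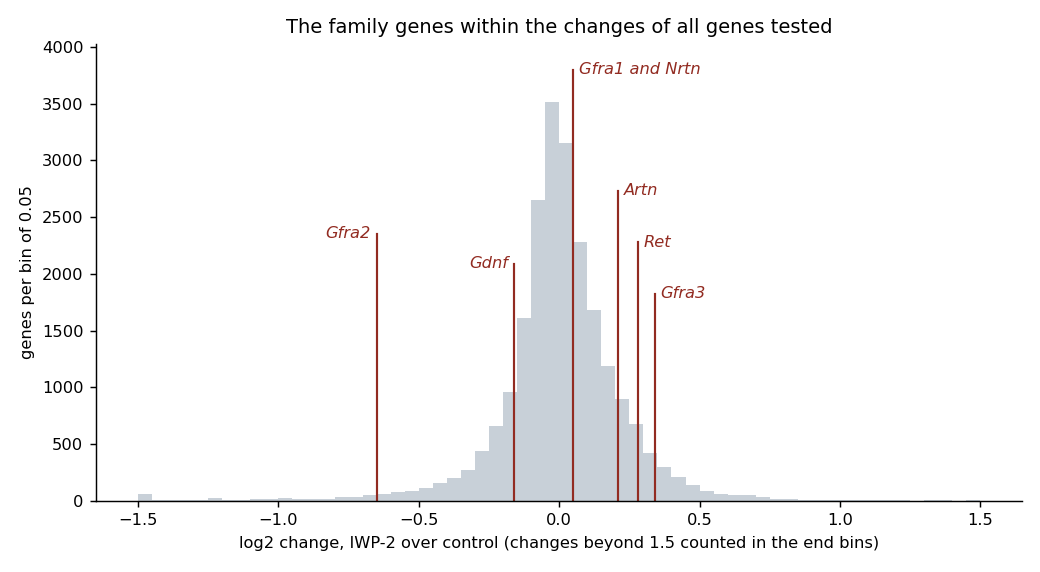
The log2 changes of all 22455 genes tested are shown as a histogram in bins of 0.05, with vertical lines at the estimates of the 7 family genes. Gfra2, at -0.65, lies in the sparse lower tail, Ret, Gfra3 and Artn lie on the upper shoulder, and Gfra1 and Nrtn lie at 0.05 near the centre.

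The level of Ret was set beside markers of the cells that could carry it. All 7 markers of the ureteric epithelium were called higher, against 18.1% of all genes. Among them were the adhesion genes Epcam (0.34 ± 0.14) and Cdh1 (0.34 ± 0.07) and the keratin gene Krt8 (0.30 ± 0.13, SD, n = 4, limma adjusted p from 0.00151 to 0.0105 for these). The median ratio of the 7 markers was 0.22, 0.39, 0.41 and 0.29 on arrays 1 to 4, and their summed level was 1.13 to 1.31 times the control. Ret was above that median on array 1, by 0.18, and below it on arrays 2 to 4, by -0.13, -0.22 and -0.02, a mean difference of -0.05 ± 0.17 (SD, n = 4). On array 1 Ret was above all 7 markers and on array 3 below all 7. The part of epithelial markers in the change of Ret was not tested. Only 2 of the 7 markers were called with the series' table, and 4 with separate channels. Against the 6 mesenchyme markers, whose median ratio was -0.05 to 0.09, Ret was higher on all 4 arrays, by 0.25 ± 0.05 (SD, n = 4). It was also above the median of 8 neural crest, glial and neuronal markers on all 4 arrays, by 0.12 ± 0.05, and differed from that of 6 nephron progenitor markers by 0.03 ± 0.17, above it on 2 of 4. Of the mesenchyme markers Pdgfrb was higher (0.80 ± 0.07, limma adjusted p = 9.30e-05), Tbx18, the transcription factor of the ureteric mesenchyme, was lower (-0.74 ± 0.26, limma adjusted p = 0.00170), and 4 did not pass. Called genes made up 16.7% of this list in each direction, against 18.1% of all genes higher and 15.0% lower. The summed level of the 6 markers was 0.96 to 1.15 times the control.

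**Figure D4:**
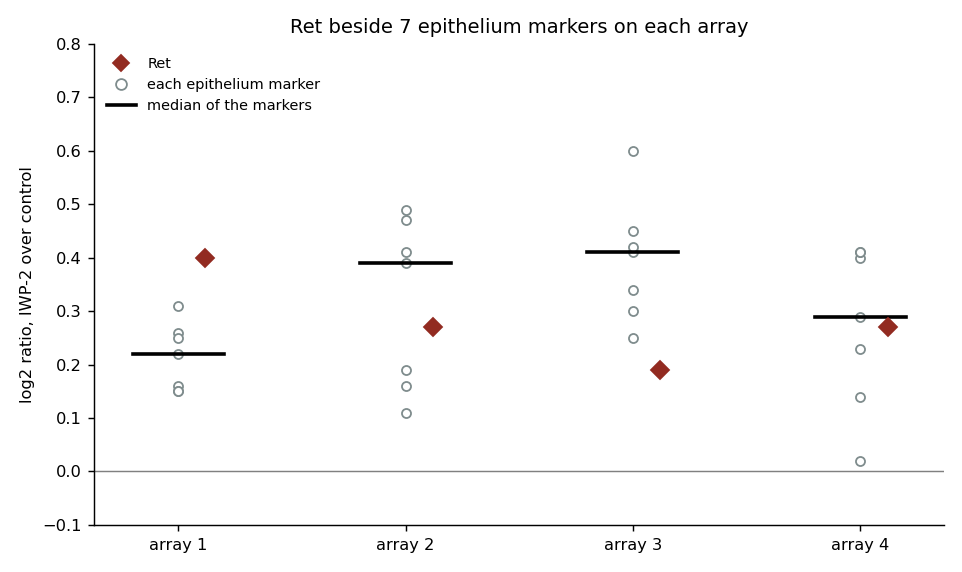
The log2 ratio of Ret on each array is plotted beside the ratios of 7 markers of the ureteric epithelium and their median. Ret lies above the median on array 1 and at or below it on arrays 2 to 4, within the range of the markers on arrays 2 and 4.

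Nerve and glial cells also use this receptor family, and 8 of their markers were measurable. Of these 8 markers, 2 were higher, against 18.1% of all genes, and 1 was lower, against 15.0%. The neuregulin receptor gene Erbb3 was among the higher ones (0.43 ± 0.09). The endothelin receptor gene Ednrb was the lower one (-1.38 ± 0.29, SD, n = 4, limma adjusted p = 0.000273). Sox10 was at -0.09 ± 0.28 and did not pass (limma adjusted p = 0.520). Without array 3, 4 of the 8 were called higher, and without array 1, 2 were called lower. Their median ratio was 0.34, 0.16, 0.00 and 0.14 on the 4 arrays, and their summed level was 0.76 to 0.96 times the control. Gfra2 lay below that median on all 4 arrays, by a mean of -0.81 ± 0.14, and also below the medians of the epithelial (-0.98 ± 0.33), mesenchymal (-0.68 ± 0.22) and nephron progenitor markers (-0.90 ± 0.34, SD, n = 4). The median change of these 4 lists was between 0.02 and 0.30, while single markers in them ranged from -1.38 (Ednrb) to 1.14 (Six2). Gfra3 differed from the epithelial median by 0.01 ± 0.07 and from the neural median by 0.18 ± 0.22. Which cells carried Gfra2 and Gfra3 was not tested.

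Gdnf is normally made by the kidney's nephron progenitors, so their markers were read as well. Of 6 such markers 5 were higher (83.3%, against 18.1% of all genes). Crym was lower (-0.96 ± 0.45, limma adjusted p = 0.00294), which is 16.7% of the list, against 15.0% of all genes. Six2, a transcription factor of these cells, was higher at 1.14 ± 0.27 (limma adjusted p = 0.000540), and its second probe gave 0.35. Only 1 of them was called higher with the series' table, and 3 without array 1 or array 3. The summed level of the markers was 1.03 to 1.24 times the control. Gdnf lay below their median ratio on all 4 arrays, by -0.06, -0.70, -0.36 and -0.50.

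Genes known to depend on RET signalling in the ureteric bud gave the next readout. Of 10 measured, 4 were higher (40.0%, against 18.1% of all genes) and none lower (against 15.0%). The list median was 0.13, against 0.00 for all genes. Spry1, the feedback inhibitor of RET, rose most, with ratios of 0.97, 1.14, 0.85 and 1.12 and a mean of 1.02 ± 0.13 (SD, n = 4), a 2.03-fold level (limma adjusted p = 3.21e-05). Wnt11, a bud-tip ligand, rose by 0.55 ± 0.09 (limma adjusted p = 0.000324), and Dusp6, a phosphatase of the ERK pathway, rose by 0.31 ± 0.13 (limma adjusted p = 0.00700). Cxcr4, a chemokine receptor gene, was called at 0.14 ± 0.11 (limma adjusted p = 0.0444), a call lost in 10 of 14 alternatives including each array left out. Etv4 and Etv5, the transcription factors through which RET acts in bud tips, did not pass, at 0.15 ± 0.17 and 0.11 ± 0.19 (limma adjusted p = 0.0929 and 0.0774). Without array 4, Etv4 reached 0.22 and passed. Spry1 and Dusp6 are also targets of FGF signalling. Only 2 of the 10 were called higher with the series' table or with separate channels.

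The genes for proteins that carry the signal from RET were called about as often as genes in general. Of 12 adapters and effectors, 2 were higher (16.7%, against 18.1% of all genes), 2 were lower (16.7%, against 15.0%) and 8 did not pass, with a median of 0.02. Grb7, an adapter that binds RET, rose by 0.51 ± 0.15 (limma adjusted p = 0.00210) and Shc1 by 0.26 ± 0.08, while the docking protein gene Gab1 fell, at -0.44 ± 0.13 (limma adjusted p = 0.00247), and the phosphatase gene Ptpn11 was at -0.21 ± 0.10 (limma adjusted p = 0.00845). The 8 others lay between -0.11 and 0.13.

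Of 6 further family genes and alternative receptors, Pspn, the ligand persephin, and Gfral, the GDF15 receptor, were not well above background. Gfra4, the persephin co-receptor gene, was lower at -0.44 ± 0.17 (limma adjusted p = 0.00112). Its 3 other usable probes gave -0.39, -0.39 and 0.08, so the probes of this gene disagreed. Gdf15 was also lower, at -0.18 ± 0.11 (limma adjusted p = 0.0173), a call lost without array 3 or array 4. Ncam1 and Sdc3, which encode RET-independent GDNF receptors, did not pass, at -0.11 ± 0.16 and -0.08 ± 0.19. Other usable probes of Ncam1 gave -0.28 and -0.21. Of the 4 genes tested in this list, 2 were lower (50.0%, against 15.0% of all genes) and none higher. With the mean of a gene's probes, 3 were lower.

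**Figure D5:**
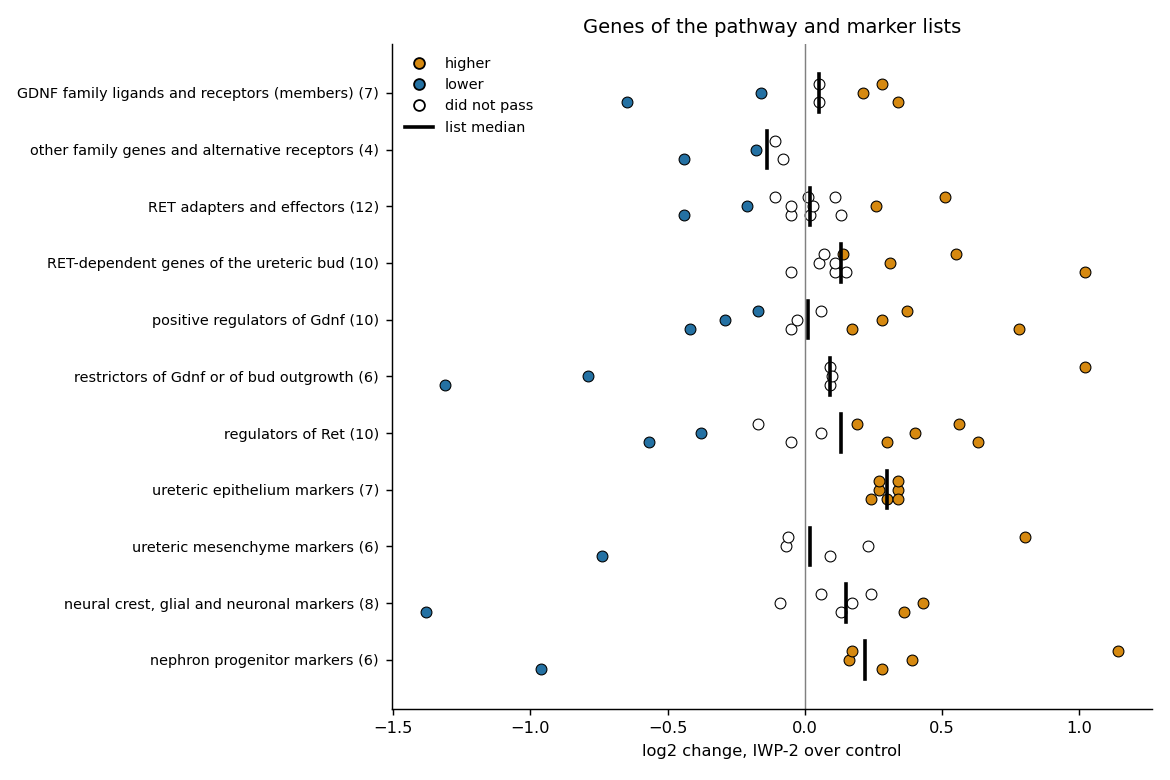
Each point is the log2 change of a gene in the pathway and marker lists, with the number tested after each name, filled where it passed the test, and a bar at the list's median. All 7 epithelium markers lie between 0.24 and 0.34, while the regulator lists spread to both sides of 0, from -1.31 (Bmp4) to 1.02 (Spry1).

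The known regulators of Gdnf and Ret moved in both directions. Of 10 genes that promote Gdnf expression, 4 were higher, against 18.1% of all genes, and 3 were lower, against 15.0%. The other 3 did not pass, and the list median was 0.01. Eya1, a transcriptional cofactor gene, was called higher at 0.17 ± 0.23 (limma adjusted p = 0.0223), a call lost without array 1 or array 4. Grem1, an antagonist of BMP4 that lets the bud grow out, was lower at -0.42 ± 0.10 (limma adjusted p = 0.00199), and Pax2 did not pass at -0.05 ± 0.11 (limma adjusted p = 0.468). The Hox11 genes were split, with Hoxa11 higher by 0.37 ± 0.06 (limma adjusted p = 0.00121) and Hoxc11 and Hoxd11 lower at -0.17 ± 0.16 and -0.29 ± 0.21. The Hoxc11 call was lost without array 1, 3 or 4 and the Hoxd11 call without array 2 or 3.

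Among 6 genes that restrict Gdnf or bud outgrowth, Bmp4, which holds back outgrowth from the ureter stalk, was lower on every array, at -1.13, -1.37, -1.37 and -1.35. Its mean of -1.31 ± 0.12 (SD, n = 4) is a 0.40-fold level (limma adjusted p = 2.86e-05). Foxc2 was also lower, at -0.79 ± 0.28 (limma adjusted p = 0.00247), and Spry1, which belongs to this list too, was higher. That made 2 of the 6 lower (33.3%, against 15.0% of all genes) and 1 higher (16.7%, against 18.1%). Slit2 and its receptor gene Robo2, which set the limits of the Gdnf domain, did not pass, at 0.09 ± 0.12 and 0.09 ± 0.13 (limma adjusted p = 0.131 and 0.136).

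Of 10 regulators of Ret, 5 were higher, against 18.1% of all genes, and 2 were lower, against 15.0%. The other 3 did not pass, and the list median was 0.13. Gata3, a transcription factor that activates Ret in the nephric duct, had ratios of 0.63, 0.57, 0.22 and 0.82 and a mean of 0.56 ± 0.25 (SD, n = 4, limma adjusted p = 0.00295). Array 3 was the lowest for Gata3, as it was for Ret and, among the other regulators called higher, for Emx2 (0.41) and Lhx1 (0.06). For Pax8 and Rara another array was the lowest. Whether Gata3 had a part in the change of Ret was not tested. Emx2, needed for the ureteric bud, rose by 0.63 ± 0.15 (limma adjusted p = 0.000408), and Pax8 (0.40 ± 0.25), Rara (0.30 ± 0.13) and Lhx1 (0.19 ± 0.10) were called higher too. The Pax8 call was lost without array 3 and the Lhx1 call without array 1, and a second Lhx1 probe gave -0.05. The retinoic acid receptor genes went opposite ways, since Rarb was lower at -0.38 ± 0.13 (limma adjusted p = 0.00143). Sox9 had ratios of -1.05, 0.23, -0.95 and -0.53, and was called lower at -0.57 ± 0.58 (limma adjusted p = 0.0108). Without the dye term, or with the series' table, it did not pass.

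Promoter sequences were at hand in the RefSeq table of build GRCm38.p6 for Gdnf, Nrtn, Artn and Gfra1, as 5 windows of 250 bases before and 50 after a start site. The TCF/LEF core, spelled CTTTGA or CTTTGT on either strand, was in none of these windows, while 5257 and 6147 of 32851 such windows, the latter 18.7%, held them. The GATA core GATAA was present once in a Gdnf window and once in the Nrtn window, against 25.4% of all windows. The Gdnf window that holds it is shown, with the match in capitals, and it is a match of letters only.
Gdnf, chr15:7813477-7813776, plus strand: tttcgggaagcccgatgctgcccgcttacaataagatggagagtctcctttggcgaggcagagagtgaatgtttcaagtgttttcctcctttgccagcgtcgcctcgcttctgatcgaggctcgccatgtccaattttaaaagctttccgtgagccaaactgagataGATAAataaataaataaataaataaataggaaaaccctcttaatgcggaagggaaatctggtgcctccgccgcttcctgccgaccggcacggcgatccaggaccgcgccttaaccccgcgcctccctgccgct

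The genes with ratios most like those of a member over the 4 arrays were looked up among 17020 named genes by the Euclidean distance of the 4 log2 ratios. Few genes resembled Gfra2, with 8 within a distance of 0.2, led by Fxyd7 (0.084), Aldh1l2 (0.130) and Hsd11b2 (0.146). For Ret the nearest were Adam23 (0.033), Tdrkh (0.071) and Hpgds (0.073), with 258 genes within 0.2. For Gfra3 they were Agbl2, Bank1 and Trpv6 (216 within 0.2), for Artn Nol4l, 4930402F06Rik and Cacna1d (544 within 0.2), and for Gdnf Zfp668, Slc25a29 and Thoc6 (253 within 0.2). As many as 1933 genes lay that close to Gfra1 and 1407 to Nrtn, the members that did not pass. With 4 arrays this likeness is a description only.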

How the data were processed

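Total RNA of pooled ureter explants was amplified in a single T7 round and labelled with 2 dyes, and each sample is 1 array of 1 treated and 1 control pool. The authors deposited the scanner tables of Agilent Feature Extraction 10.7.3.1, which hold intensity per spot and channel on a linear scale and a log10 ratio of red over green, and a series table of signed fold values, treated here as a score. Mean intensities were background-corrected with normexp (offset 50) over all spots, loess-normalised within arrays (span 0.3) and averaged over the 4 copies of a probe after outlier spots had been dropped (6 of 112 for the 7 genes). Ratios were turned to IWP-2 over control. limma 3.58.1 in R 4.3.3 fitted the mean with a dye term, leaving 2 residual degrees of freedom per gene before moderation. A gene was tested through its brightest probe where more than 0.5 of its spots were well above background on all 4 arrays in the control or in the treated channel. Channel levels were taken after quantile normalisation of each spot's mean log intensity between arrays. Levels of different probes cannot be compared, and the summed level of a marker list is weighted towards its brightest probes. Depth does not apply to arrays, and the number of 4 limits the precision. Named list genes are those with the largest change in each direction of a list and those with a role in Gdnf or Ret control, with other called genes added after their values were seen; some list genes are counted but not reported here. The members and the lists were chosen with earlier results of these data known, and the lists come from general knowledge of kidney and ureter development. The pipeline was tested on simulated data. The alternatives were the scanner's processed signals, the series' table, a normexp offset of 16, median centring, no dye term, the 8 channels as separate samples, no background filter, a processed signal over 100, the mean of a gene's probes, each array left out, and outlier spots kept.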

Additional observations from a re-analysis of the deposited data

Results flagged for a closer look

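The treated Ret level on array 3, at 12.13, stood apart from the other 3 treated levels, which were 12.43 to 12.48. The control level on the same array was also the lowest of its group, at 11.94, and the ratio there was 0.19. Of 21 sets of 4 values examined in this way for the 7 genes (control levels, treated levels and ratios), this was the only one to be picked out, and chance picks out about 1 in 20. Without array 3 the change of Ret was 0.33 and remained called (limma adjusted p = 0.00750).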

How the results depend on the processing

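Over 14 alternatives, 97 values of the 7 family genes had a test. Of these, 83 kept their direction and their side of the threshold, 14 kept the direction and lost the call, and 0 changed direction. Gdnf could not be tested with a mean processed signal over 100. A slide or scan block was not run, because all 4 arrays share 1 slide and 1 scan time. The fit on ratios within arrays is itself the paired analysis, and the fit of the 8 channels as separate samples is its unpaired form, under which the Ret, Artn and Gdnf calls were lost. Keeping the outlier spots was chosen after seeing the data, and it changed no call of the 7 genes. The causes of the changes below were not tested.

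Over all genes, the series' table called 1833 genes higher and 2050 lower, separate channels 2039 and 2069, in place of 4068 and 3360. Of the 7 family genes, the number lower was 1 with the scanner's processed signals, median centring, no dye term, separate channels or the signal filter, and 0 with the series' table, and it was 1 to 2 with an array left out. The number higher was 1 with the series' table and with separate channels. Of the RET-dependent genes, 2 were higher with the series' table and with separate channels. With the series' table, 1 adapter or effector was higher and 1 lower, 2 positive regulators of Gdnf were higher, 3 restrictors were higher and 1 lower, and 2 regulators of Ret were higher and 1 lower. Of the regulators of Ret, 3 were higher with separate channels and 1 was lower without the dye term. Of the other family genes, 1 was lower with no dye term, separate channels or the signal filter, 1 was higher with no background filter, and 1 to 3 were lower with an array left out. Of the positive regulators of Gdnf, 1 was lower with the signal filter and 1 to 2 with an array left out. Pax2, which was not called, lay between -0.10 and 0.00 with an array left out and reached 0.00 without array 2.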
